A study of Mus musculus with 31 samples.

Results

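Chromatin accessibility in regulatory T cells (Tregs) was compared between 2 cytokine regimens at 0.75 h after injection. The first was 20 µg of mIL-2/CD25 (FP), in which the mouse cytokine is fused to its receptor chain CD25, the second was 5 µg of mIL-2 (IL2), and mice given 100 µL of PBS served as the background. The Tregs were sorted from spleen, and all groups were C57BL/6 mice carrying the RFP-FoxP3 reporter. The comparison takes the 3 FP libraries and the 3 IL2 libraries of that time by their column names, which is 6 of the 31 ATAC-seq libraries of the series, and 3 PBS libraries of the same time share the fit. The doses differ, so what follows compares regimens and not molecules at a matched dose. ATAC-seq counts transposase cuts in open DNA, and the deposited table holds whole-number counts over 104979 peaks. Whether replicate libraries stand for separate mice is not stated in the labels, which mention technical replicates for each biological sample, so p-values measure the spread between these samples only.

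IL-2 is bound on Tregs by the receptor chains CD25 (encoded by Il2ra), CD122 (Il2rb) and the common gamma chain (Il2rg). JAK1 and JAK3, kinases held by the receptor, then phosphorylate STAT5, which moves to the nucleus and binds as a dimer to a palindromic site. Tregs carry CD25 constantly and depend on IL-2 for survival and for expression of Foxp3, the transcription factor that defines them.

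The sequences below show the STAT5-type sites in some of the peaks described later, with 16 bases on each side. Only peaks that hold a site were taken for this, and none of them passed the test of FP against IL2. Each is the plus strand of GRCm38, read 5′ to 3′ from the RefSeq assembly, and capitals mark a match to TTCNNNGAA, a pattern that is its own reverse complement. The peaks are an intronic peak of Cyth1 on chromosome 11 (118222570-118223332), an intronic peak within 1 kb of a Sema4d transcript start on chromosome 13 (51776128-51776788), an intergenic peak near Cd2 on chromosome 3 (101272795-101273404), an intergenic peak near Ccr7 on chromosome 11 (99180005-99180747) and an intronic peak of Foxp3 on chromosome X (7583723-7584442). The last entry is 300 bases of an intronic peak within 1 kb of a Bcl2 transcript start on chromosome 1 (106606895-106607640), shown because both of its matches, 171 bases apart, lie in 1 window and because FP passed the test against PBS there.
Cyth1 site 1, chr11:118222873-118222913: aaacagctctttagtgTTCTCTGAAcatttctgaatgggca
Cyth1 site 2, chr11:118222914-118222954: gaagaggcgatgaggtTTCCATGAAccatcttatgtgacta
Sema4d site 1, chr13:51776328-51776368: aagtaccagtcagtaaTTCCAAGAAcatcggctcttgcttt
Sema4d site 2, chr13:51776461-51776501: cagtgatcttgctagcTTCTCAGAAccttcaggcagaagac
Cd2 site 1, chr3:101273087-101273127: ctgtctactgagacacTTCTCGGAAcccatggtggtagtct
Cd2 site 2, chr3:101273131-101273171: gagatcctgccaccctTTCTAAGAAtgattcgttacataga
Ccr7 site 1, chr11:99180209-99180249: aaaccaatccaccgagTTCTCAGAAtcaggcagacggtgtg
Ccr7 site 2, chr11:99180289-99180329: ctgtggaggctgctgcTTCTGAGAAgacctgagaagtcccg
Foxp3 site 1, chrX:7584043-7584083: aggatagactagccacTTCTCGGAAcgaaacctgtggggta
Foxp3 site 2, chrX:7584240-7584280: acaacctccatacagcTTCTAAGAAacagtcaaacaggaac
Foxp3 site 3, chrX:7584357-7584397: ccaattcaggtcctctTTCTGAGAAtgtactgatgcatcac
Bcl2 window, chr1:106606975-106607274: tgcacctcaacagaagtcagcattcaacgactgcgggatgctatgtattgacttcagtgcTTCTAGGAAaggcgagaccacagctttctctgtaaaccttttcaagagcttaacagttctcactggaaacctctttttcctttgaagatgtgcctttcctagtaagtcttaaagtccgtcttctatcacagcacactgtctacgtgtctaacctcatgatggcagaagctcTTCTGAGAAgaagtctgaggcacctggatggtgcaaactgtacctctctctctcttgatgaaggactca

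The matches of Sema4d, Cd2, Ccr7, Foxp3 and Bcl2 all carry a pyrimidine before and a purine after the central base of the pattern, the stricter form of the STAT5 site, and those of Cyth1 do not. A match is a description of the sequence and not of binding. TTCNNNGAA occurred in 13.8% of all tested peaks, and the share grew with peak width: 5.37% of peaks under 300 bases, 15.2% of those of 300 to under 600 bases and 22.6% of those of 600 to under 900 bases held it.

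Library totals were 25.2 to 34.0 M counts for FP, 23.6 to 26.7 M for IL2 and 18.6 to 28.8 M for PBS, and 1 peak on chromosome 1 took 21.0% to 32.2% of the counts of each library. IL2 replicate 1 had 6307 peaks with no count, against 1606 to 3445 in the 8 other libraries of this time. The mean correlation of a library's log2 CPM with the others was lowest for FP replicate 3 (0.818) and highest for FP replicate 1 (0.877). The labelled cell type was checked by summing the CPM (counts per M counts, with library sizes scaled by edgeR's trimmed mean of M-values) of peaks assigned to marker genes. All 9 T cell and Treg markers had peaks, and their sum was 374 to 467 CPM in FP, 445 to 454 in IL2 and 372 to 438 in PBS libraries. Of the markers of other cells, 5 of 9 B cell genes, 2 of 2 CD8 T cell genes, 5 of 6 NK cell genes, 6 of 9 myeloid genes and 6 of 10 erythroid genes had peaks, and Ms4a1, Ncr1, Csf1r and Slc4a1 had none. The B cell sum was 27.9 to 49.8 CPM in FP, 28.8 to 38.5 in IL2 and 34.8 to 43.6 in PBS libraries, and the myeloid sum 99.8 to 158 in FP, 94.0 to 123 in IL2 and 109 to 144 in PBS libraries. The erythroid sum was 102, 111 and 159 CPM in FP, 89.8, 120 and 119 in IL2 and 94.0, 79.8 and 97.2 in PBS libraries. Its 17 tested peaks at the beta-globin gene Hbb-bt, which merge into 2 regions, had FP wholly above IL2 in 13. Its 10 at Gata1, which encodes an erythroid transcription factor, also merge into 2 regions. At 6 of these 10, all in 1 region, FP was wholly below IL2. Over all tested peaks FP was wholly above IL2 at 4.55% and wholly below at 4.81%. The part of other cells in the results was not tested.

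No single peak separated the FP libraries from the IL2 libraries after correction. Of 100468 tested peaks in 68774 separate regions, 0 passed (0.0% called; edgeR's quasi-likelihood test with Benjamini-Hochberg adjustment over all tested peaks; n = 3 each), and the lowest adjusted p was 1 after rounding. At an unadjusted p under 0.05 (3.66% of peaks in either direction), 2003 peaks (1.99%) were higher with FP and 1674 (1.67%) were lower. FP libraries lay wholly above IL2 libraries at 4576 peaks (4.55%) and wholly below them at 4837 (4.81%). The median log2 difference over all tested peaks was 0.02, and 48.3% lay below 0. The 95% interval of a difference had a median half-width of 1.02 on the log2 scale, and of 0.76 over the 54677 peaks with a mean log2 CPM of at least 1. It stayed within 2-fold in either direction at 50.5% of those peaks and at 95.3% of the 7984 peaks with a mean log2 CPM of at least 4, so a 2-fold difference could be bounded at strong peaks and not at most weak ones. DESeq2 called 5 peaks, 4 of them higher with FP, where IL2 libraries were at or near 0, and 1 lower, at Cyth1. At the 4 higher peaks FP libraries were low as well (0.252 to 4.24 CPM) and overlapped PBS libraries, and FP replicate 3 was the highest FP library at each.

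Peaks higher with the mean of both regimens than with PBS were lower with FP than with IL2 almost without exception. The mean of FP and IL2, which weighs both equally, was set against PBS by edgeR. At an adjusted p under 0.05, 279 peaks in 229 regions were higher with that mean (0.278% of tested peaks) and 3 were lower (0.00299%). Of the 279 peaks, 277 also passed for IL2 against PBS and 2 for FP against PBS. The group thus consists almost wholly of peaks that IL2 raised, and the libraries compared below also chose it. In bulk chromatin, fewer responding cells and less opening per cell cannot be told apart. At the 279 peaks the median difference of FP from PBS was 1.30 and that of IL2 from PBS was 1.90, comparisons that share the PBS libraries. The median difference of FP from IL2 was -0.62 there and 0.02 over all tested peaks. FP was below IL2 at 278 of the 279 peaks, against 48.3% of all tested peaks. FP libraries lay wholly below IL2 libraries at 198 of the 279 peaks and wholly above them at 0, against 4.81% and 4.55% of all tested peaks. At an unadjusted p under 0.05, 155 of the 279 were lower and 0 higher with FP, and 0 passed after adjustment. Set against PBS singly, FP was higher at 2 peaks (0.00199%), in Bcl2 and near Gm47635, and lower at 0, while IL2 was higher at 490 (0.488%) and lower at 9 (0.00896%). The Gm47635 peak had 16.9, 16.0 and 16.9 CPM in FP libraries, 29.7, 26.8 and 23.7 CPM in IL2 libraries and 5.48, 4.82 and 4.00 CPM in PBS libraries, and it was named after its values were seen.

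The level of this group in each library was the median over its peaks of log2 CPM minus the PBS mean. It was 1.5, 1.33 and 1.09 in FP libraries, 1.95, 1.82 and 1.90 in IL2 libraries and 0.03, 0.13 and -0.12 in PBS libraries. Every FP library therefore stood between the PBS and the IL2 libraries, with no overlap, and FP replicate 3 was the lowest of the FP libraries. Without FP replicate 3 the median difference of FP from IL2 at these peaks was -0.52, and without IL2 replicate 1 it was -0.58. The plot of list levels by library shows the same spacing for peaks chosen at 16 h.

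**Figure D1:**
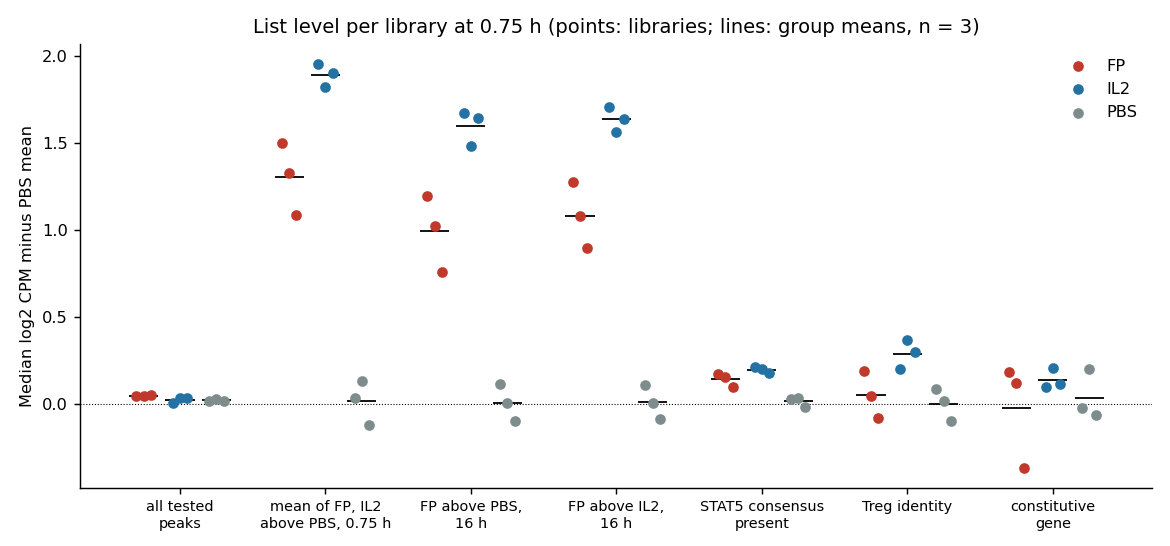
Level of 7 peak lists in each library at 0.75 h, as the median log2 CPM minus the PBS mean (vertical axis), with 1 point per FP, IL2 and PBS library and a line at each group mean. In the 3 lists of responding peaks the FP libraries (0.76 to 1.5) lie between the PBS and the IL2 libraries (1.48 to 1.95), while over all tested peaks the groups lie together near 0.

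The 12 largest responses to the mean of both regimens, 1 peak a gene, were limited to a mean log2 CPM of at least 1. All 12 were lower with FP, by 0.61 to 1.15 on the log2 scale. FP libraries lay wholly below IL2 libraries at 10 of them, against 4.81% of all tested peaks. The intronic peak of Sema4d, which encodes a semaphorin of immune cells, had 10.7, 7.61 and 10.9 CPM in FP libraries, 23.6, 17.1 and 14.7 CPM in IL2 libraries and 1.42, 2.79 and 2.56 CPM in PBS libraries. Its groups did not overlap, and the difference of FP from IL2 was -0.92 ± 0.29 (SE; 95% interval -1.53 to -0.32). The peak at Lef1, which encodes a transcription factor of resting and stem-like T cells, had 4.19, 3.91 and 2.61 CPM in FP libraries, 6.99, 7.77 and 6.93 CPM in IL2 libraries and 0.804, 1.35 and 0.279 CPM in PBS libraries. It differed by -1.01 ± 0.41 between FP and IL2, again with groups that did not overlap. The intergenic peak near Ptpn1, which encodes a phosphatase that acts on JAK kinases, had 3.22, 5.08 and 3.12 CPM in FP libraries, 7.80, 8.73 and 5.57 CPM in IL2 libraries and 0.996, 0.915 and 0.326 CPM in PBS libraries (difference of FP from IL2 -0.95 ± 0.39). It held no TTCNNNGAA, in contrast to the other 11 of the 12.

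The other 9 of these peaks were at Sept9, which encodes a septin of the cytoskeleton, the noncoding RNA gene Lncpint, the potassium channel gene Kcnj15, the kinase gene Camk2d, Ikzf3, which encodes the lymphoid transcription factor Aiolos, Sipa1l2, which encodes a regulator of Rap GTPases, Leprotl1, Gm17490 and Gm17767. The difference at Sept9 was -1.07 ± 0.41, with 3.75, 4.42 and 2.57 CPM in FP libraries and 11.9, 5.43 and 5.27 CPM in IL2 libraries. The highest IL2 value came from replicate 1, and the other IL2 libraries were still above every FP library. At Ikzf3 the levels were 3.52, 4.15 and 3.47 CPM in FP libraries and 8.08, 6.31 and 5.15 CPM in IL2 libraries (difference -0.81 ± 0.42, interval -1.70 to 0.08). The intervals of 7 of the 12 peaks left out 0.

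**Figure D2:**
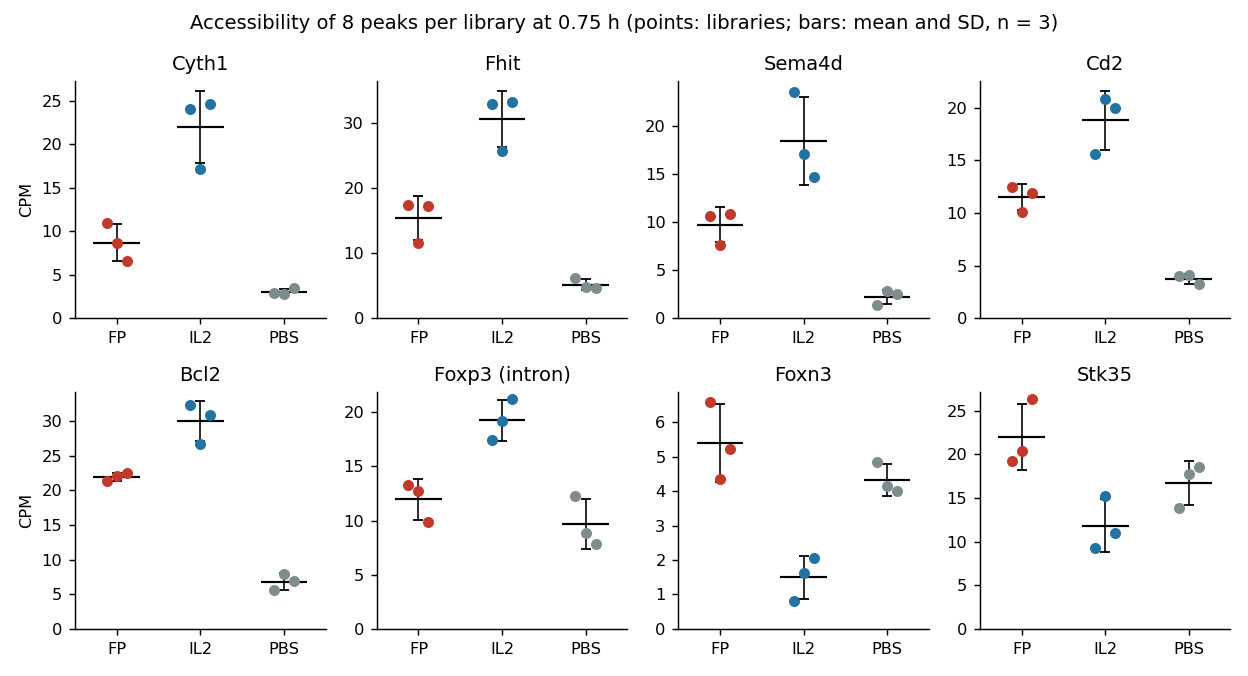
CPM (vertical axis) of 8 peaks in each FP, IL2 and PBS library at 0.75 h, with points for libraries and bars for the mean and SD of 3. At Cyth1, Fhit, Sema4d, Cd2, Bcl2 and the intronic Foxp3 peak every FP library is below every IL2 library, and at Foxn3 and Stk35 every FP library is above every IL2 library.

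At 16 h the regimens stood the other way round, and peaks chosen there gave a second view of 0.75 h with libraries the choice did not use. FP was higher than PBS at 115 peaks (0.114% of 100771) and higher than IL2 at 142 peaks (0.141%) at 16 h, where IL2 differed from PBS at 0 (edgeR, adjusted p under 0.05). Over the 115 peaks, the median level at 0.75 h was 1.2, 1.02 and 0.76 in FP libraries, 1.67, 1.48 and 1.64 in IL2 libraries and 0.12, 0.00 and -0.10 in PBS libraries, on the scale of the list levels above. At 0.75 h FP was below IL2 at 98.3% of the 115 peaks, wholly below at 62 (53.9%) and wholly above at 0, with a median difference of -0.54. Over the 142 peaks the median difference was also -0.54 at 0.75 h, with FP wholly below IL2 at 69 (48.6%) and wholly above at 1 (0.704%). The same 142 peaks had a median of 1.89 at 16 h, where they were chosen. Over all tested peaks FP was below IL2 at 48.3%, wholly below at 4.81% and wholly above at 4.55%. Of the 115 peaks 66 (57.4%) and of the 279 responding peaks 66 (23.7%) were shared.

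**Figure D3:**
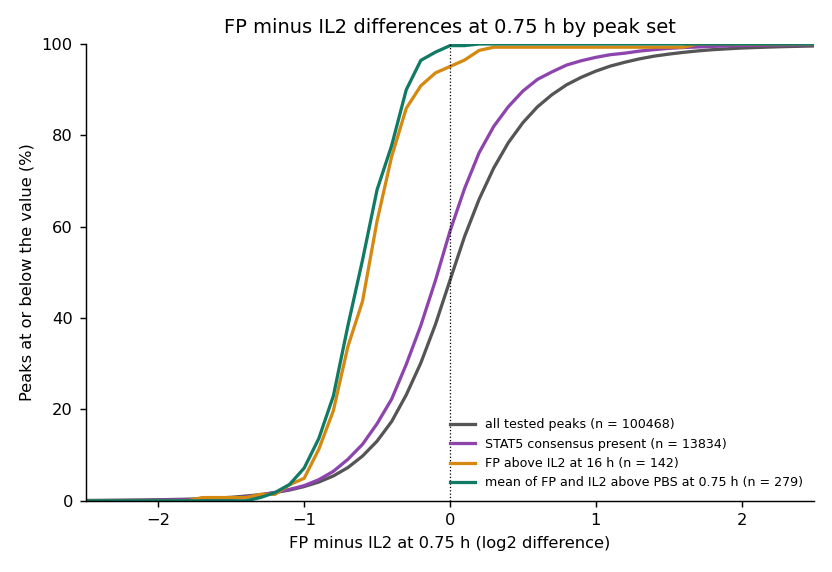
Cumulative share of peaks (vertical axis, %) by the log2 difference of FP from IL2 at 0.75 h (horizontal axis) for 4 peak sets. The curves of peaks higher with FP than IL2 at 16 h and of peaks higher with the mean of both regimens lie almost wholly below 0, with medians of -0.54 and -0.62, while that of all tested peaks crosses 50% near 0.

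Of the 8 largest rises of FP over PBS at 16 h, all were lower with FP than with IL2 at 0.75 h, by 0.52 to 1.11 on the log2 scale. FP libraries lay wholly below IL2 libraries at 6 of the 8, against 4.81% of all tested peaks. The peak near Cd2, which encodes an adhesion receptor of T cells, had 12.5, 10.1 and 11.9 CPM in FP libraries, 15.6, 20.8 and 20.0 CPM in IL2 libraries and 3.98, 4.09 and 3.21 CPM in PBS libraries at 0.75 h (difference of FP from IL2 -0.71 ± 0.24). At 16 h it had 15.5, 25.9 and 16.1 CPM in FP libraries, 1.84, 4.30 and 2.48 CPM in IL2 libraries and 3.52, 0.805 and 3.30 CPM in PBS libraries. The IL2 libraries were thus above the FP libraries at the early time and among the PBS libraries at the later one. The intronic peak of Gad2, a glutamate decarboxylase gene, had 14.7, 15.9 and 10.5 CPM in FP libraries and 23.8, 18.5 and 19.6 CPM in IL2 libraries at 0.75 h, with no overlap (difference of FP from IL2 -0.59 ± 0.27). At 16 h it had 29.7, 21.3 and 31.7 CPM in FP libraries and 4.05, 4.17 and 4.17 CPM in IL2 libraries, the order of the groups being turned round. The peak of Wwp1, which encodes a ubiquitin ligase, differed by -0.78 ± 0.33 at 0.75 h and by 2.42 at 16 h, and that of Mkln1 by -0.72 ± 0.28 and by 2.23. The remaining members were at Ppm1l, a phosphatase gene, Maml2, which encodes a Notch coactivator, Gm18726 and Gm43674.

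Whether the difference between regimens itself differed between the times was tested in 1 fit of all 31 libraries. It did at 204 of 104520 peaks (0.195%), and FP was lower relative to IL2 at 0.75 h than at 16 h at 201 of them (0.192%) and higher at 3 (0.00287%; edgeR, adjusted p under 0.05). Of the 201 peaks, 103 (51.2%) were among the 142 with FP above IL2 at 16 h, which is 72.5% of the 142. At 0.75 h alone the 201 peaks had a median difference of FP from IL2 of -0.73, a value that the test used. The 3 peaks that went the other way, named after their values were seen, were at Rbl1, which encodes a pocket protein of the cell cycle, the noncoding RNA gene Miat and Gm12610. Rbl1 had 6.52, 4.24 and 5.39 CPM in FP libraries and 2.05, 2.90 and 3.26 CPM in IL2 libraries at 0.75 h, with a difference of FP from IL2 of 0.98 there and of -1.38 at 16 h. The count of 204 depended on single libraries: at 0.75 h it was 104 or 91 when FP replicate 2 or 3 was left out, and 80 or 120 when IL2 replicate 1 or 3 was. It was 132 or 111 without 1 of the FP libraries and 120 without 1 of the IL2 libraries at 16 h. The sample identifiers carry another date for each time, so time and date cannot be told apart.

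**Figure D4:**
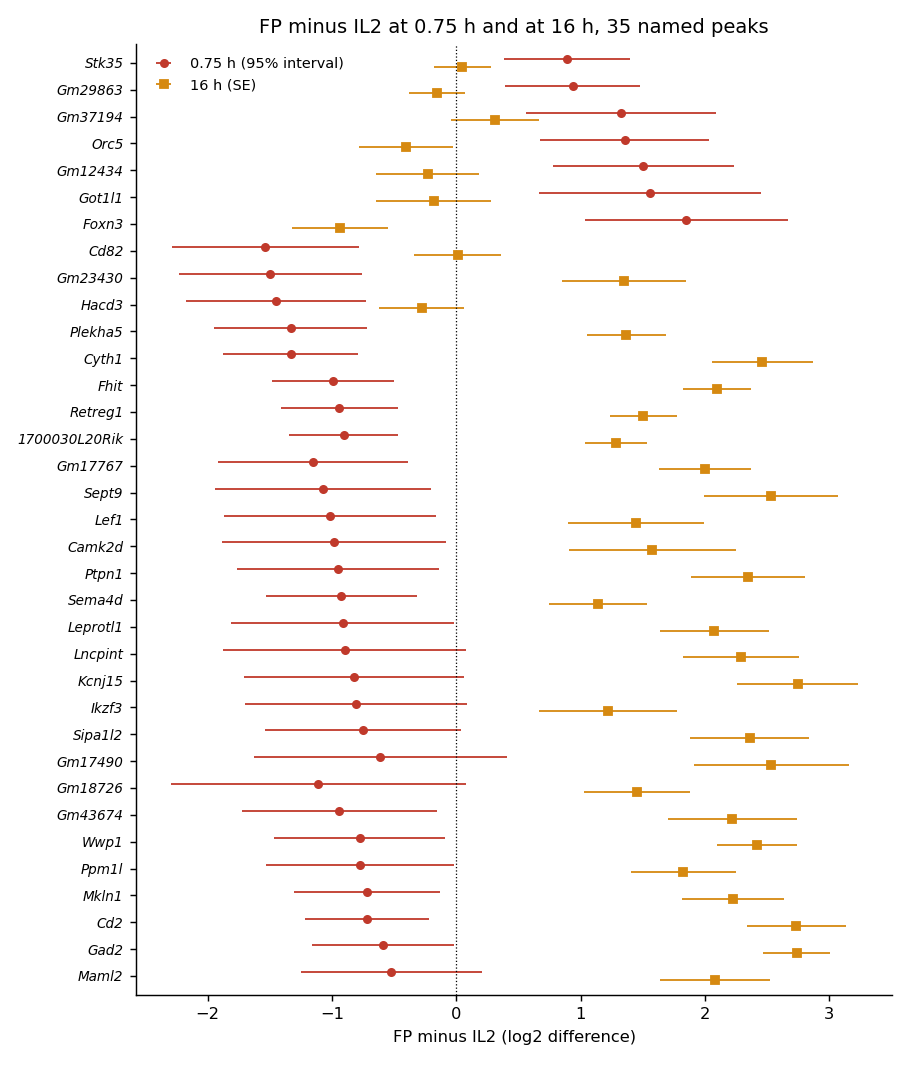
Log2 difference of FP from IL2 (horizontal axis) at 0.75 h with its 95% interval and at 16 h with its SE, for 35 peaks named by rule. From the top are 7 peaks higher with FP at 0.75 h, 8 lower with FP, the 12 largest responses at 0.75 h and the 8 largest rises with FP at 16 h. The last 2 groups lie left of 0 at 0.75 h (-1.15 to -0.52) and right of 0 at 16 h, where the last group was chosen.

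The 8 peaks with the smallest unadjusted p in each direction of the direct comparison were also described. The choice of a direction favours an IL2 level above PBS where FP is lower and below PBS where FP is higher, so the place of PBS at these peaks is a description only. Among peaks with a mean log2 CPM of at least 1 and groups that did not overlap, the 8 with FP lower were at Cyth1, Plekha5, 1700030L20Rik, Cd82, Gm23430, Fhit, Hacd3 and Retreg1. TTCNNNGAA was held by 7 of the 8, against 13.8% of all tested peaks. IL2 was higher than PBS at 6 of them by the edgeR test. The Cyth1 peak, in a gene for an exchange factor of ARF GTPases, had 10.9, 8.66 and 6.55 CPM in FP libraries, 24.1, 17.2 and 24.6 CPM in IL2 libraries and 2.95, 2.79 and 3.44 CPM in PBS libraries. The 3 groups did not overlap, and the difference of FP from IL2 was -1.33 ± 0.26 (95% interval -1.88 to -0.79; edgeR, unadjusted p = 6.97e-05, adjusted p = 1 after rounding). The peak in Fhit, which encodes a dinucleoside hydrolase, had 17.4, 11.5 and 17.2 CPM in FP libraries, 32.9, 25.6 and 33.2 CPM in IL2 libraries and 6.13, 4.72 and 4.60 CPM in PBS libraries (difference of FP from IL2 -0.99 ± 0.24).

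At 2 of the 8, Cd82, a tetraspanin gene, and Hacd3, which encodes an enzyme of fatty acid elongation, the PBS mean lay between the FP and IL2 means, and neither regimen passed the test against PBS. Hacd3 had 2.15, 2.16 and 2.22 CPM in FP libraries, 8.28, 4.4 and 5.23 CPM in IL2 libraries and 6.43, 4.77 and 4.47 CPM in PBS libraries. Its IL2 and PBS libraries overlapped. At Retreg1, which encodes a receptor for autophagy of the endoplasmic reticulum, FP libraries had 9.87, 10.0 and 8.90 CPM, IL2 libraries 17.2, 20.0 and 18.2 CPM and PBS libraries 9.00, 7.66 and 7.81 CPM. FP there was close to PBS (difference of FP from PBS 0.24) while IL2 was higher than PBS by 1.18 ± 0.23 (edgeR, adjusted p = 0.0206).

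The peaks with FP higher that are described here were at Foxn3, Gm12434, Orc5, Stk35, Got1l1, Gm37194 and Gm29863, with differences of 0.89 to 1.85. TTCNNNGAA was held by 0 of these 7 peaks and by 13.8% of all tested peaks, and 0 of 7 is near that share. In all 7 the IL2 mean was below the PBS mean, and at 0 of them did IL2 pass the test against PBS. At Foxn3, a forkhead repressor gene, FP libraries had 6.60, 4.36 and 5.22 CPM, IL2 libraries 0.804, 1.63 and 2.05 CPM and PBS libraries 4.86, 4.14 and 4.00 CPM (difference of FP from IL2 1.85 ± 0.39; edgeR, unadjusted p = 1.56e-04). FP and PBS overlapped and IL2 stood apart. The start-site peak of Stk35, a kinase gene, had 19.2, 20.4 and 26.3 CPM in FP libraries, 9.28, 15.2 and 11.0 CPM in IL2 libraries and 13.9, 17.7 and 18.6 CPM in PBS libraries. Orc5 encodes a subunit of the origin recognition complex, and its difference of FP from IL2 was 1.36 ± 0.32.

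The list of IL-2 receptor and JAK-STAT genes had 151 peaks over 18 genes, with a median difference of FP from IL2 of 0.03. With single libraries left out that median ran from -0.14 to 0.14. FP was wholly below IL2 at 8 (5.30%) and wholly above at 3 (1.99%), against 4.81% and 4.55% of all tested peaks. The share wholly below was thus near that of all peaks. At the most accessible peak of each gene, Jak1 differed by -0.00 ± 0.22, Jak3 by -0.01 ± 0.32, Stat5a by 0.19 ± 0.38, Stat5b by -0.00 ± 0.34 and Socs1, a feedback inhibitor, by 0.04 ± 0.25. The 95% interval at Jak1 ran from -0.45 to 0.45, which leaves room for a difference of that size. Other peaks of these genes lay farther from 0: the 30 peaks of Jak1 ran from -1.96 to 1.05, with a median of 0.12 and 2 lower with FP at an unadjusted p under 0.05, and 8 of the 11 peaks of Stat5b were below 0, with a median of -0.60 and a lowest value of -1.25. The median over a gene's peaks was below 0 in 11 of the 18 genes, and the share over all genes was not computed. The intronic peak of Il2ra had 18.5, 11.3 and 11.7 CPM in FP libraries, 16.6, 16.7 and 19.9 CPM in IL2 libraries and 6.36, 9.83 and 12.0 CPM in PBS libraries. Its FP and IL2 libraries overlapped (difference -0.36 ± 0.27), as did those of Il2rb (-0.37 ± 0.27).

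The list of IL-2 and STAT5 targets had 274 peaks over 23 genes, 0 of them called, with a median of -0.10. In this list 61.3% of peaks lay below 0, against 48.3% of all tested peaks. The share was 60.6% in the list of constitutive genes, so it was not particular to these targets. Among the targets FP was wholly below IL2 at 22 peaks (8.03%) and wholly above at 7 (2.55%), against 4.81% and 4.55% of all tested peaks. Without FP replicate 3 the median of the targets was 0.05, so its sign rested on that library. Bcl2, which encodes an inhibitor of apoptosis, held 42 of those peaks in 27 regions, of which 34 were below 0 and 12, in 6 regions, had FP wholly below IL2. The Bcl2 peak shown above had 21.3, 22.0 and 22.5 CPM in FP libraries, 32.3, 26.7 and 30.8 CPM in IL2 libraries and 5.55, 7.95 and 6.88 CPM in PBS libraries. FP was higher than PBS there by 1.69 (edgeR, adjusted p = 0.0175), and the difference of FP from IL2 was -0.45 (95% interval -0.88 to -0.01). Cdk6, a kinase of cell cycle entry, went both ways: its 37 peaks had a median of 0.28, while its 2 responding peaks differed by -0.39 ± 0.18 and -0.47 ± 0.23. At Lta, which encodes lymphotoxin alpha, FP libraries had 8.56, 7.21 and 10.5 CPM, IL2 libraries 19.4, 13.1 and 9.40 CPM and PBS libraries 4.98, 4.38 and 1.16 CPM, with FP and IL2 overlapping. All 6 peaks of Cish, a feedback inhibitor induced by STAT5, were below 0 (-0.87 to -0.11).

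In the Treg identity list, 200 peaks over 15 genes had a median of -0.17. FP was wholly below IL2 at 32 (16.0%) and wholly above at 7 (3.50%), against 4.81% and 4.55% of all tested peaks. Both Foxp3 peaks were below 0. The peak in its intron, chosen for description after its values were seen, had 13.3, 12.7 and 9.84 CPM in FP libraries, 17.4, 19.2 and 21.2 CPM in IL2 libraries and 12.3, 8.86 and 7.86 CPM in PBS libraries. FP overlapped PBS and lay wholly below IL2 (difference of FP from IL2 -0.69 ± 0.24; edgeR, unadjusted p = 0.0102), and the peak holds the 3 STAT5 matches printed above. An intronic enhancer of Foxp3 is known to bind STAT5, and whether this peak covers it was not checked. The other Foxp3 peak is also assigned to Ppp1r3f, Gm36995 and Flicr. Its centre lies 25 bases from a transcript start, and which gene starts there was not checked. This peak holds no match, and its difference was -0.21 ± 0.23 with overlapping libraries. The median over a gene's peaks was below 0 in 13 of the 15 genes, the exceptions being Il2ra (0.10, with 11 of 24 peaks below 0) and Capg (0.07, with 3 of 7 peaks below 0), an actin-capping protein gene. The share over all genes was not computed for this list either. Nrp1, which encodes the receptor neuropilin, had 61 peaks in 36 regions, 46 of the peaks below 0. It held 14 of the 32 peaks with FP wholly below IL2, in 6 regions, and 4 with FP wholly above. At an unadjusted p under 0.05 Nrp1 had 2 lower and 3 higher, against 1.67% and 1.99% of all tested peaks. Its responding peak had 2.74, 3.13 and 2.82 CPM in FP libraries, 5.47, 4.56 and 6.33 CPM in IL2 libraries and 1.57, 0.385 and 0.512 CPM in PBS libraries. All 7 peaks of Izumo1r, which encodes a folate receptor of Tregs, and all 5 of Gpr83, a receptor gene used as a Treg marker, were below 0.

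The list of resting and lymphoid-homing T cell genes had 360 peaks over 16 genes with a median of -0.16. FP was wholly below IL2 at 45 (12.5%) and wholly above at 9 (2.5%), against 4.81% and 4.55% of all tested peaks. The peak near Ccr7, which encodes the receptor for homing to lymph nodes, had 2.85, 2.40 and 2.74 CPM in FP libraries, 6.15, 5.24 and 6.67 CPM in IL2 libraries and 0.651, 1.59 and 1.02 CPM in PBS libraries (difference of FP from IL2 -1.17 ± 0.38, interval -1.97 to -0.38). Foxp1, a transcription factor of quiescent T cells, held 114 of the peaks in 69 regions, 77 of them below 0. The responding peak of Bach2, a repressor that restrains effector differentiation, had 27.8, 27.5 and 24.2 CPM in FP libraries, 35.1, 36.9 and 29.0 CPM in IL2 libraries and 13.8, 13.0 and 12.0 CPM in PBS libraries. At Il6ra, an IL-6 receptor gene, 16 of 17 peaks were below 0 and 10, in 2 regions, had FP wholly below IL2. At Tcf7, a partner of Lef1, the most accessible peak went the other way (0.59 ± 0.34, overlapping libraries).

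FP replicate 3 had the lowest level of the FP libraries in these lists. In the list of constitutive genes (71 peaks) the level was 0.18, 0.12 and -0.36 in FP libraries, 0.10, 0.21 and 0.12 in IL2 libraries and -0.02, 0.20 and -0.07 in PBS libraries, with a median difference of FP from IL2 of -0.06. The Treg identity level was 0.19, 0.04 and -0.08 in FP libraries, 0.20, 0.37 and 0.30 in IL2 libraries and 0.09, 0.02 and -0.10 in PBS libraries. Without FP replicate 3 the median difference was -0.10 for Treg identity, -0.14 for resting genes and 0.00 for constitutive genes. The 9 other lists had medians of -0.14 (interferon response, 30 peaks) to 0.03 (helper lineage and cytokine, 110 peaks), with 0 peaks called in each. Without FP replicate 3 the medians of 8 of these 9 were above 0 (0.00 to 0.09), the list of PI3K, mTORC1 and metabolism genes (-0.01) being the exception. The 9 included survival and cell cycle (166 peaks, -0.13), NF-kB and TNF receptor (189 peaks, -0.11), T cell receptor signalling (372 peaks, -0.02) and AP-1 and immediate early genes (99 peaks, 0.01). In the survival and cell cycle list FP was wholly below IL2 at 23 (13.9%) and wholly above at 1 (0.602%), against 4.81% and 4.55% of all tested peaks. Bcl2 held 12 of the 23, in 6 regions, the same peaks as were counted above among the IL-2 and STAT5 targets.

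Over peaks of all widths, the median difference between regimens grew with the number of STAT5-type sites in a peak. Among 86634 tested peaks with no TTCNNNGAA the median difference of FP from IL2 was 0.03, with FP from PBS at -0.00 and IL2 from PBS at -0.05. With 1 match (12015 peaks) it was -0.07, with 2 matches (1576 peaks) -0.19 and with 3 or more (243 peaks) -0.31. The median of FP from PBS was 0.08, 0.25 and 0.43 at 1, 2 and 3 or more matches, and that of IL2 from PBS was 0.11, 0.36 and 0.73. FP was wholly below IL2 at 62 (25.5%) of the 243 peaks with 3 or more matches and wholly above at 6 (2.47%). Over all tested peaks the shares were 4.81% and 4.55%. The stricter form of the site, in 7456 peaks, had a median of -0.13.

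**Figure D5:**
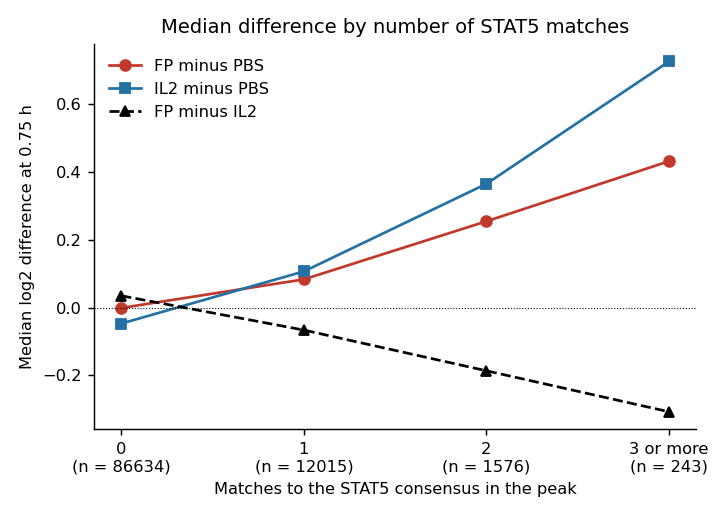
Median log2 difference at 0.75 h (vertical axis) of FP from PBS, IL2 from PBS and FP from IL2, by the number of STAT5 matches in a peak (horizontal axis). FP from PBS reaches 0.43 and IL2 from PBS 0.73 at 3 or more matches, and FP from IL2 is at -0.31.

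Peaks that hold the site are wider, so presence against absence of the site was also read within 4 equal classes of peak width. The number of matches was not read within these classes. From the narrowest to the widest class the median was 0.02, -0.12, -0.14 and -0.06 with the site and 0.10, 0.05, 0.00 and 0.01 without it. Within 4 equal classes of GC content it was -0.12, -0.13, -0.07 and -0.01 with the site, from the lowest to the highest GC, and 0.09, 0.03, 0.01 and 0.03 without. Within 4 equal classes of mean level it was -0.01, -0.05, -0.12 and -0.08 with the site, from the lowest to the highest level, and 0.15, 0.05, 0.02 and 0.00 without. Over 1 kb from a transcript start site the median was -0.12 with the site (10027 peaks) and 0.05 without (60300 peaks), and within 1 kb it was -0.03 with the site (3807 peaks) and 0.02 without (26334 peaks). The site was present in 244 (87.5%) of the 279 responding peaks, against 13.8% of all tested peaks. The 35 responding peaks without it had a median difference of FP from IL2 of -0.62, the same to 2 decimals as the 244 with it.

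Among peaks with exactly 1 match, sorted into 32 classes by the 3 central bases on either strand, the 8 classes of the stricter form (6048 peaks) had medians of FP minus IL2 of -0.20 to -0.03, and the 24 classes outside it (5967 peaks) of -0.14 to 0.23, with 14 of the 24 below 0. The ranges of the classes thus overlapped. In the stricter form TTCTAAGAA had a median of -0.20 (786 peaks), TTCTCAGAA of -0.15 (1275 peaks) and TTCCCAGAA of -0.03 (1053 peaks). Outside it TTCGTAGAA had -0.14 (54 peaks), TTCAAAGAA -0.05 (779 peaks) and TTCACTGAA 0.03 (437 peaks). The classes were ordered by these data, and the values describe these libraries.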

How the data were processed

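The deposited table holds raw counts of reads per peak, made by the authors for 31 ATAC-seq libraries; all columns were matched to samples or groups, and 0 were left unmapped. Reads were mapped with bwa-mem to GRCm38, per the series' design text, and BWA and MACS2 2.1.2 are named in the submitters' processing notes; peaks were kept by IDR between pseudo-replicates of each sample. Peak names of 9561 peaks contain commas, so the deposited counts were read by counting fields backwards from the last. The 16 h columns could be matched to their groups and not to single samples.

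Peaks were filtered with filterByExpr of edgeR 4.0.16 (minimum count 10, minimum total 15; R 4.3.3), and TMM factors were computed on the rest. FP was compared with IL2 in a quasi-likelihood fit of the 9 libraries at 0.75 h, with p-values adjusted by Benjamini-Hochberg and a threshold of 0.05. Differences are log2 values, given with an SE or a 95% interval, and a prior count of 2 entered log2 CPM only. A separate fit covered the 9 libraries at 16 h, and the difference between times was tested in a fit of all 31. DESeq2 1.42.0 and limma 3.58.1 (voom), other scalings and filters, and libraries left out were alternatives. The fit was tested on simulated data. The genes assigned to peaks, on which all lists rest, were those in the deposited peak names. GENCODE M21 gave the distance to a transcript start and the position within a gene. Motifs were searched in GRCm38 with pysam 0.24.0 in Python 3.11.15. Tables and figures used numpy 2.4.6, pandas 2.3.3 and matplotlib 3.10.9.

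Named peaks, with a mean log2 CPM of at least 1 and 1 peak a gene, were the 8 with the smallest unadjusted p in each direction among those without overlap between FP and IL2, the 12 largest responses to the mean of FP and IL2 among those called, and the 8 largest rises of FP over PBS at 16 h. For genes of 4 pathway lists the most accessible peak and any called peak were added, without that minimum. One of the peaks higher with FP is not reported here. The comparison, its lists and its peaks were chosen with earlier results of these data known. Library totals at 0.75 h were 18.6 to 34.0 M counts, the biological coefficient of variation was 43.3%, and the fit had 6 residual degrees of freedom.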

Additional observations from a re-analysis of the deposited data

Results flagged for a closer look

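The difference between FP and IL2 was not the same at 0.75 h and at 16 h at 204 peaks, by edgeR's test of the difference between times over 104520 peaks. Among the peaks named in the text or by rule that passed this test, 27 in number, the value at 0.75 h minus that at 16 h, on the log2 scale, was most negative at Cyth1 (-3.80), Sept9 (-3.62), Kcnj15 (-3.58), Cd2 (-3.45), Gad2 (-3.33), Ptpn1 (-3.30) and Wwp1 (-3.20). It was -3.19 at Lncpint, -3.17 at Gm43674, -3.16 at Gm17767, -3.12 at Sipa1l2, -3.10 at Fhit and -3.0 at Leprotl1. Values of -2.95 at Mkln1, -2.86 at Gm23430, -2.85 at Gm47635, -2.71 at Plekha5, -2.61 at Maml2, -2.45 at Retreg1 and -2.22 at Bcl2 came next. The values nearest to 0 among the negative ones were -2.20 at 1700030L20Rik, -2.05 at Foxp1, and -1.94 and -1.45 at the 2 Cdk6 peaks. Of these 27 peaks, it was positive at Miat (3.61), Rbl1 (2.36) and Gm12610 (1.29). Peaks chosen by their difference at either time carry part of that choice in these values, and the peaks named for 16 h were chosen on FP and PBS libraries that the test also used.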

How the results depend on the processing

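The count of 0 peaks that differed between FP and IL2 was unchanged under 12 alternatives and with each library left out in turn, and DESeq2 gave 5. Of those, 4 were higher with FP, at Car10, Gm25495, Gm14266 and Rps18-ps1, where the IL2 libraries held 0.198 CPM or less and the FP libraries 0.252 to 4.24 CPM, and 1 was lower, at Cyth1 (DESeq2, adjusted p = 0.0209; edgeR, adjusted p = 1 after rounding). The 204 peaks of the test between times became 517 with DESeq2 (43 higher, 474 lower), 120 with library totals in place of TMM, and 80 to 195 with single libraries left out (104 without FP replicate 2 and 91 without FP replicate 3 at 0.75 h, 132 and 111 without 1 of the FP libraries at 16 h). The median difference at peaks higher with FP than IL2 at 16 h was -0.69 with the library total as a covariate, and -0.68 to -0.48 with single libraries left out. At peaks with TTCNNNGAA the median was -0.051 with library totals, -0.13 with the stricter site and -0.12 to -0.059 with single libraries left out. At peaks higher with the mean of both regimens it was -0.66 to -0.58, and -0.69 to -0.52 with single libraries left out. At peaks higher with FP than PBS at 16 h it was -0.66 to -0.50, and -0.65 to -0.48 with single libraries left out. The cause of these shifts was not tested. For FP against IL2, 1292 of 1293 alternatives kept direction and call at 59 single named peaks. No tested peak had passed in the main fit, so keeping the call means that the peak again did not pass. Many of the 59 were chosen for libraries without overlap or for a large response, so a turn of direction was unlikely from the start. At 60 others, named for being the most accessible peak of a gene, 1308 of 1319 stayed within the SE and 11 moved further. The sign changed in 85, at 29 of the 60. For the difference between times, 283 of 405 kept the call, with 122 past the threshold no longer. The direction turned at 0 of the 59 peaks and in 0 of the 405.

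The samples were taken to share only a number, and the main fit had no replicate block. The rule, an arbitrary one, asked for a correlation of deviations over 0.1 in every pair of the same number. FP and IL2 libraries with the same number correlated at 0.016, 0.142 and 0.097. Over FP, IL2 and PBS libraries all 9 pairs of the same number were positive (0.0038 to 0.242), while 12 of 18 pairs of different numbers were negative. Deviations sum to 0 within a group, so positive pairs of the same number bring negative ones among the others. Not every library correlated best with its own number, and these values do not settle whether libraries are paired by number. With the replicate block 0 peaks were called and 5274 had an unadjusted p under 0.05, against 3677 without it. The 95% interval stayed within 2-fold at 27.6% of all tested peaks, against 95.3% of those with a mean log2 CPM of at least 4.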
